A study of Mus musculus with 6 samples.

Results

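Ubiquitin-conjugating enzymes carry activated ubiquitin from an activating enzyme (E1) to a target, usually with the help of a ligase (E3), and most mouse genes for them have symbols that begin with Ube2. All array probes with such a symbol were taken as the family, which gave 34 of 19057 genes named on the array and 60 of its 45281 probes. RNA of splenic B cells was compared between 3 Sle2 mice and 3 B6 mice, with 1 Illumina BeadChip per mouse. Sle2 mice are C57BL/6 (B6) congenic animals that carry the Sle2 lupus susceptibility locus of NZM2410 chromosome 4, and the B6 mice are wild type. The labels give no age or sex and do not say how the B cells were isolated. The family was chosen because of the Sle2 against B6 difference of Ube2e2 in these same arrays, so that difference is given below as a description, with no test. The other members were chosen by name.

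The kind of ubiquitin linkage a target receives depends largely on its conjugating enzyme. Chains through lysine 48 of ubiquitin mostly send proteins to the proteasome, whereas chains through lysine 63 build signalling scaffolds, among them those of the NF-kB pathway that B cells use downstream of Cd40 and Toll-like receptors. A few family members carry ubiquitin-like proteins instead, such as Nedd8 or Isg15. The Ube2e enzymes have a long N-terminal extension ahead of the catalytic core, and Ube2e1, Ube2e2 and Ube2e3 are each other's closest relatives.

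Median intensities before normalization were 53.6 to 56.7 on the Sle2 arrays and 50.4 to 52.1 on the B6 arrays, and 17417 to 17923 probes were detected per array, where detected means a detection p-value under 0.05. Of the B cell markers measured, Cd79b, Ms4a1, Cd22 and Pax5 were detected, with a summed level of 17325 to 17706 in Sle2 and 17600 to 19757 in B6 on the linear scale of normalized values. Markers of other cells were measured too. Of 9 T cell markers on the array 7 were detected, Cd3d, Cd3e, Cd3g and Zap70 among them on all 6 arrays, and Cd4 and Cd8a were not. Neutrophil, macrophage, natural killer and erythroid markers were also detected in both strains. Xist, the X-inactivation transcript of female cells, was at 10.93 in Sle2 mouse 3 and 10.13 in B6 mouse 2 on the log2 scale, so both strains held mice with this signal. Xist and the Y-linked Eif2s3y were detected together on 2 arrays, at 10.93 and 5.36 in Sle2 mouse 3 and at 5.89 and 8.67 in B6 mouse 3.

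Most of the family was measurable in splenic B cells. Of the 60 probes, 41 (68.3%) were detected on at least 3 of the 6 arrays and were tested, against 42.8% of all probes with a gene symbol. They represent 26 of the 34 genes. The 8 genes without a tested probe were Ube2c, Ube2d1, Ube2dnl2, Ube2ql1, Ube2r2, Ube2t, Ube2v2 and Ube2w. Of the probes, 39 were detected on all 6 arrays, 16 on no array and 5 on some, so detection was mostly all or none. Where several probes of a gene were tested, the brightest over the 6 arrays stands for the gene.

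Ube2e2, Ube2e1 and Ube2e3 were all detected on every array, and Ube2e2 had the widest difference between strains. Its only probe read 8.71, 8.87 and 8.86 in the Sle2 mice, against 6.87, 7.62 and 6.87 in the B6 mice, as normalized log2 values. The Sle2 mice lay close together, and the lowest of them was 1.09 above the highest B6 mouse, which was mouse 2. In deposited intensities, before any correction, this was 493, 510 and 531 in Sle2 and 141, 207 and 147 in B6. The mean was 8.81 ± 0.09 in Sle2 and 7.12 ± 0.43 in B6 (SD, n = 3 each), a difference of 1.69 on the log2 scale (SE 0.19) or 3.23-fold. Of the 9297 genes tested, 7 had a larger difference in either direction. Nothing is read from this rank, since Ube2e2 was chosen by this same difference. Without B6 mouse 2 the difference was 1.95, without Sle2 mouse 3 it was 1.67 and without B6 mouse 3 it was 1.57. A fit that also took the Xist signal into account gave 1.71. A signal from whole B cell preparations does not separate more RNA per cell from more cells of a type that carries it. Several marker lists of other cells lay above 0 in the same comparison, with no marker called. T cell markers had a median difference of 0.41 over 7 tested, from -0.05 for Cd247 to 0.69 for Bcl11b. Of these 7, 3 were higher at an unadjusted p under 0.05, as were 10.5% of all tested genes. The 3 include Bcl11b, at 5.72 in Sle2 and 5.02 in B6. It was detected in 1 B6 mouse and in all 3 Sle2 mice, which alone met the filter. The summed level of T cell markers was 577 to 708 in Sle2 and 459 to 609 in B6. Erythroid markers had a median of 0.71 over 5 tested. Slc4a1 was at 1.13, Alas2 at 0.76 and Sptb at 0.71, all 3 at an unadjusted p under 0.05, and Klf1 was at -0.07. The summed level of erythroid markers was 15637 to 20652 in Sle2 and 12057 to 22452 in B6. Hba-a1, at 0.23, is the brightest in that sum, and Epb42 was not detected. Neutrophil markers had a median of 0.37 over 5 tested, from 0.22 for S100a9 to 0.86 for Ltf, with Camp at 0.77. Only 1 of the 5 was higher at an unadjusted p under 0.05. The summed level of neutrophil markers was 1580 to 1617 in Sle2 and 716 to 2528 in B6. The median was 0.28 for natural killer cell markers and 0.09 for monocyte and macrophage markers. It was -0.29 for platelet markers, beside 0.08 for B cell markers. Of 5 tested platelet markers only Clec1b, at -0.53, had an unadjusted p under 0.05. Of 4 tested natural killer cell markers only Prf1 did, at 0.47. The monocyte and macrophage list was split, from -0.41 for Spic, at an unadjusted p under 0.05, to 0.44 for Lyz2. For plasma cells, Derl3 was at 0.66, Xbp1 at 0.23 and Sdc1 at 0.17, and only Derl3 had an unadjusted p under 0.05. Jchain and Prdm1 were not detected. The summed level of plasma cell markers was 3028.4 to 3602.5 in Sle2 and 2440.3 to 3601.7 in B6. The part of these cells in the Ube2e2 difference was not tested.

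**Figure D1:**
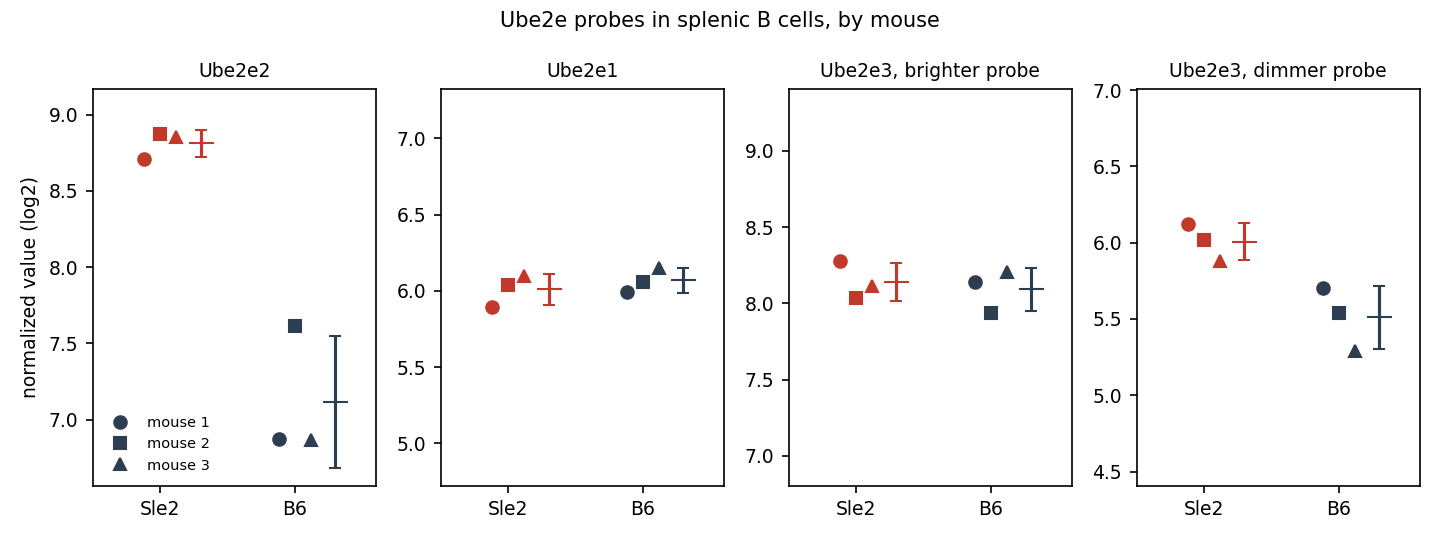
Normalized log2 values of the Ube2e probes in each mouse, Sle2 left of B6, with the mean and SD of 3 mice beside the points. Each panel has its own axis over the same span of log2 units, since levels of different probes cannot be compared. The 3 Sle2 mice lie above all 3 B6 mice for Ube2e2 and for the dimmer Ube2e3 probe, and overlap with them for Ube2e1 and the brighter Ube2e3 probe.

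Ube2e1, which in human cells also acts with the Polycomb complex that ubiquitinates histone H2A, showed no such gap. It was at 5.89, 6.04 and 6.10 in Sle2, against 5.99, 6.06 and 6.15 in B6, and the strains overlapped. The difference was -0.06 (SE 0.10, limma adjusted p = 0.802), with a 95% interval of -0.29 to 0.17, and it was 0.020 with arrays scaled to equal medians.

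Ube2e3 was measured by a pair of probes that gave different answers. The brighter probe was at 8.28, 8.04 and 8.11 in Sle2, against 8.14, 7.93 and 8.21 in B6, a difference of 0.05 (SE 0.11, limma adjusted p = 0.860). The dimmer probe was at 6.12, 6.02 and 5.88 in Sle2, against 5.70, 5.54 and 5.29 in B6. On that probe every Sle2 mouse lay above every B6 mouse, and the difference was 0.50 (SE 0.13), but it did not pass over all probes (limma adjusted p = 0.116). Both are annotated to the same transcript record. Ube2e2 has 1 probe, so no second probe bears on its difference.

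Ube2e1 and Ube2e2 are adjacent among the tested genes of chromosome 14, outside the labelled chromosome 4 locus, and lie on the same strand. Their promoters are shown because these neighbouring relatives gave a difference of 1.69 and -0.06. The sequences are those of RefSeq for GRCm38.p6, the C57BL/6J genome, and not of the Sle2 mice, and they run from 250 bases before to 50 bases after a transcript start. Capitals mark GC boxes, the letters GGGCGG on either strand, which can overlap. The windows are chr14:18893722-18894021 and chr14:18893364-18893663 for the Ube2e2 starts and chr14:18331795-18332094 for Ube2e1, all on the minus strand.
Ube2e2 start 1: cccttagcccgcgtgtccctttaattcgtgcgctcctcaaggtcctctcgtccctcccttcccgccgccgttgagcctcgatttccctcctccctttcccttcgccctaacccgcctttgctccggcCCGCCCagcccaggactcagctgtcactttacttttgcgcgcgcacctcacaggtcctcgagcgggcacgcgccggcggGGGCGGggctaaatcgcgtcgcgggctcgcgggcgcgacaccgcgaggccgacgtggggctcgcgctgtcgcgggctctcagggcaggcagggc
Ube2e2 start 2: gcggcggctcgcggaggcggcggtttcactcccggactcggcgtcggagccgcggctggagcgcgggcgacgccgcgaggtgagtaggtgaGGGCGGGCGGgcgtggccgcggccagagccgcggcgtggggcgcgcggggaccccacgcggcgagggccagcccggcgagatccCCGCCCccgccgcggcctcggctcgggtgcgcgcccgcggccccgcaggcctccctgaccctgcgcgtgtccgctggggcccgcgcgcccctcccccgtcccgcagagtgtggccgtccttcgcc
Ube2e1: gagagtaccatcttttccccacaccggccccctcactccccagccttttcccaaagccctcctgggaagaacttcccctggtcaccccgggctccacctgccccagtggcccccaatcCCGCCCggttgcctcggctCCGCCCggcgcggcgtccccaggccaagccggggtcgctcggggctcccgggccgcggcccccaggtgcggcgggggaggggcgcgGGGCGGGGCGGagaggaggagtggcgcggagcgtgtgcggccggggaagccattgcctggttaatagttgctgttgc
All 3 windows were rich in G and C, with 70.0% and 82.7% at the Ube2e2 starts and 73.0% at Ube2e1, against a median of 52.7% over all promoters. They held 2 and 3 GC boxes at the Ube2e2 starts and 4 at Ube2e1, and 35.7% of 32851 promoters of this length hold at least 1. The letters TATAAA, found in 13.6% of promoters, and CACGTG, found in 7.15%, were in none of the 3 on either strand. CCAAT, found in 37.4%, was in the Ube2e1 window only. In all, 28 of the 34 family genes matched the promoter table.

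The chromosomal surroundings of Ube2e2 were read by gene order alone, from the RefSeq table for GRCm38.p6, as the array files name no genome build. Of the 5 tested genes on either side, named here for their position, only Nudt13, a Nudix hydrolase family gene, passed the test. Nudt13 was at 5.76, 5.84 and 5.79 in Sle2, against 6.32, 6.27 and 6.37 in B6. It was lower by -0.52 on the log2 scale (SE 0.09, limma adjusted p = 0.0419), and its other tested probe was at -0.18 (adjusted p = 0.493). That call was lost when any 1 of the 6 mice was left out, with adjusted p-values of 0.0555 to 0.171, and under 6 other settings, among them the mean of its probes (0.120). The next gene towards Ube2e2, Kcnk5, a potassium channel gene, was at 0.49 on its brightest probe (adjusted p = 0.0811) and at -0.02 and -0.09 on its others. Past the threshold lay 2 of the 314 genes tested on chromosome 14 (0.637%), against 1.04% of all tested genes. They were Nudt13 and Ube2e2, for which the threshold is part of its choice and nothing is read from it.

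**Figure D2:**
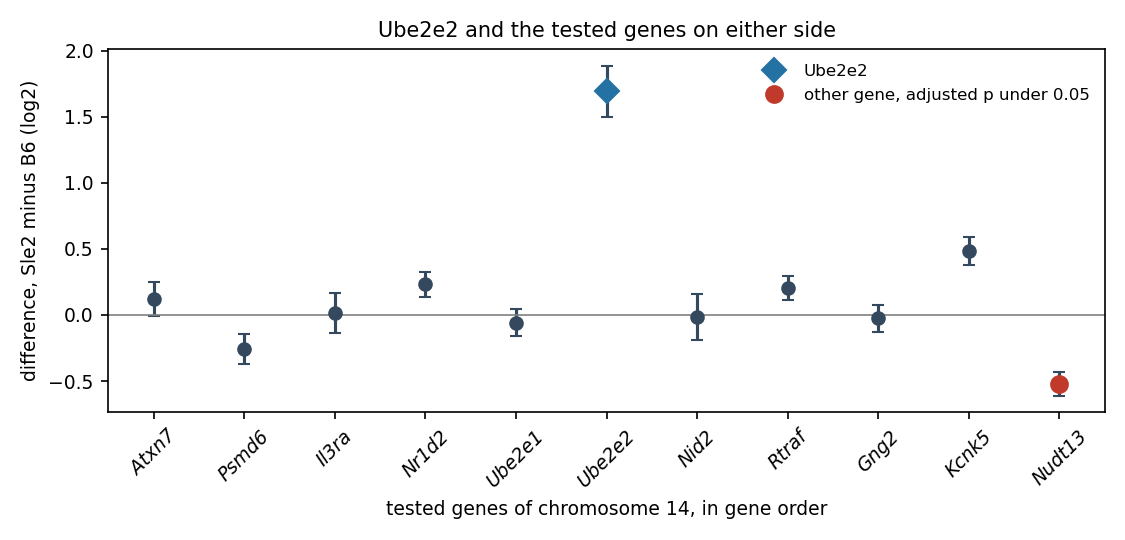
Log2 difference between Sle2 and B6, drawn with its SE from limma, for Ube2e2 (diamond) and the 5 tested genes on either side of it in chromosome 14 gene order. Ube2e2 stands at 1.69 and its neighbour Ube2e1 at -0.06, and Nudt13 (red) at -0.52 is the only neighbour past the threshold.

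Outside Ube2e2 the differences of the family were spread about as widely as those of all genes on the array. In the limma fit, 0 of the other 25 genes passed an adjusted p of 0.05, beside 1.04% of all 9297 tested genes (0.656% higher and 0.387% lower), and none of their 40 tested probes passed. The count was also 0 with any 1 mouse left out, and at an adjusted p of 0.1, which 2.69% of all genes passed. At an unadjusted p under 0.05 there were 5 of 25 (20.0%), 1 higher and 4 lower in Sle2, against 16.9% of all genes (10.5% higher and 6.45% lower). The strains did not overlap for 7 of 25 (28.0%), 3 higher and 4 lower, against 24.2% of all genes (14.7% higher and 9.45% lower). Both counts hold Ube2u, which entered the test only because the B6 mice detected it. Among the 24 genes detected in both strains, 4 (16.7%) had an unadjusted p under 0.05 and 6 (25.0%) did not overlap. Differences of the 25 ran from -0.38 to 0.23 with a median of -0.03, beside a median of 0.02 over all genes. With arrays scaled to equal medians these medians were 0.10 and 0.14. The median size without regard to sign was 0.12 for the family and 0.13 for all genes.

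**Figure D3:**
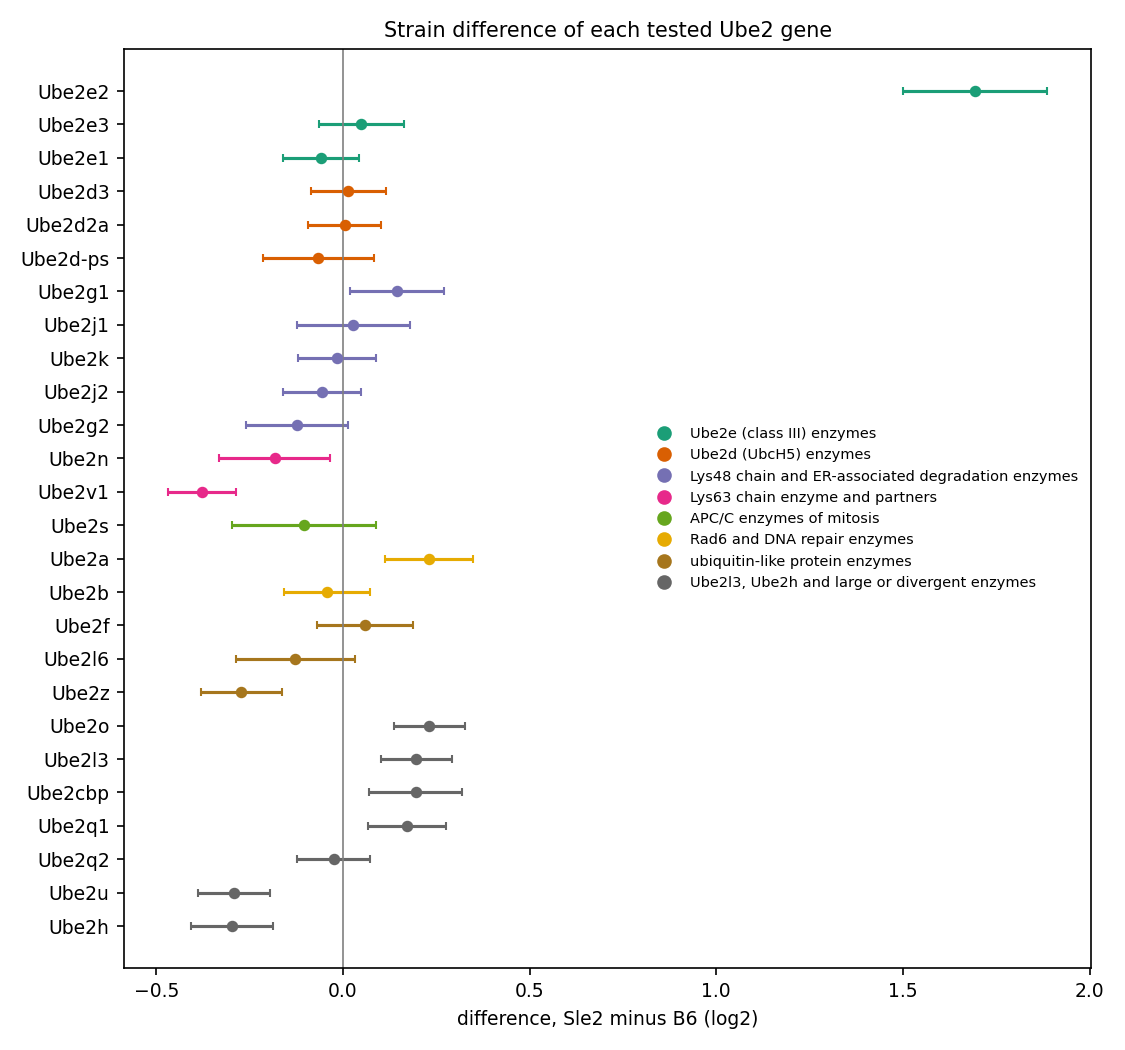
Log2 difference between Sle2 and B6 for the brightest probe of each of the 26 tested Ube2 genes, drawn with its SE from limma and coloured by the role of the enzyme. All genes other than Ube2e2 lie between -0.38 and 0.23.

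Among the enzymes of lysine 63 chains, Ube2v1 came nearest to the threshold of all 25. It encodes a catalytically inactive partner that directs Ube2n to build these chains. The only probe of Ube2v1 was at 8.50, 8.60 and 8.50 in Sle2, against 8.95, 8.91 and 8.87 in B6. The strains did not overlap on it. The difference was -0.38 (SE 0.09, limma adjusted p = 0.102). It passed with no background correction (adjusted p = 0.0428), with the authors' series matrix values (0.0443) and with a trended robust prior (0.0381), and over all its alternatives the adjusted p ran from 0.0381 to 0.291. Ube2n itself was at 8.11, 7.82 and 7.97 in Sle2, against 7.84, 8.26 and 8.36 in B6, a difference of -0.18 (adjusted p = 0.562) with overlapping strains. Ube2v2, the other partner of Ube2n, was not detected by either of its probes.

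The Ube2d enzymes, which serve many RING-type ligases, showed brightest probes at almost the same value in both strains. Ube2d2a was at 10.38, 10.23 and 10.37 in Sle2, against 10.39, 10.34 and 10.23 in B6. Its difference was 0.00 (adjusted p = 0.989), with a 95% interval of -0.22 to 0.23. Ube2d3 was at 8.07, 8.05 and 8.13 in Sle2, against 8.20, 8.04 and 7.98 in B6, a difference of 0.01 (adjusted p = 0.956). Its dimmer probe read differently, with 7.58, 7.32 and 7.66 in Sle2, against 7.05, 7.10 and 7.15 in B6. On the dimmer probe the strains did not overlap, and the difference was 0.42 (SE 0.11, adjusted p = 0.130). Ube2d-ps, listed as a long noncoding RNA gene, was at -0.07 (adjusted p = 0.854). Ube2d1 was detected by 1 of its 2 probes in 1 B6 mouse, and Ube2dnl2 on no array.

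Enzymes that build lysine 48 chains or act in the degradation of endoplasmic reticulum proteins had 5 tested genes, none called, with differences from -0.12 to 0.15. Ube2g1, a partner of cullin-based ligases, was at 0.15 (adjusted p = 0.584) on its brightest probe and at -0.18 and -0.16 on the others. Ube2g2, which works with ligases of the endoplasmic reticulum, was at -0.12 (adjusted p = 0.677). Ube2k, which can build lysine 48 chains without a ligase in the test tube, was at -0.02 (adjusted p = 0.958) on its brightest probe. Its dimmer probe was at 9.36, 9.24 and 9.14 in Sle2, against 9.47, 9.45 and 9.67 in B6, a difference of -0.28 (adjusted p = 0.238) with no overlap between strains.

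The chromosome that carries the Sle2 locus holds 4 family genes, Ube2j1, Ube2j2, Ube2r2 and Ube2u. On chromosome 4, 5.22% of tested genes were called. Ube2u, whose transcript is known mainly from testis in human, was detected in all 3 B6 mice and in no Sle2 mouse by 1 of its 2 probes. That probe was at 4.71, 4.67 and 4.73 in Sle2, against 4.93, 5.12 and 4.94 in B6. The strains did not overlap, but all 6 values lay near the lowest detected value of an array, 4.90 to 4.95. Since it passed the filter through the B6 mice alone, its values are given with no test, as measured means of 4.71 in Sle2 and 5.00 in B6. Its other probe was not detected on any array. In gene order it lies between the called genes Fggy, with 9 tested genes between them, and Wdr78, with 5 between them.

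The other chromosome 4 members were close to 0. Ube2j1, an enzyme anchored in the membrane of the endoplasmic reticulum, was at 5.03, 5.36 and 5.50 in Sle2, against 5.50, 5.17 and 5.13 in B6, a difference of 0.03 (adjusted p = 0.944). Ube2j2, of the same class, was at 7.07, 7.06 and 6.86 in Sle2, against 7.15, 7.0 and 7.01 in B6, a difference of -0.06 (adjusted p = 0.816). Ube2r2, a close relative of the cell cycle enzyme Cdc34, was detected in 1 B6 mouse and was not tested.

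On chromosome 9, where 3.51% of tested genes were called, Ube2q2 was at -0.03 (adjusted p = 0.921) on its brightest probe and at 0.18 and 0.02 on its others. Ube2cbp, whose name marks it as a binding protein of Ube2c rather than a conjugating enzyme, was at 0.20 (adjusted p = 0.451). It lies next but one, among tested genes, to the called gene Tent5a.

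Enzymes for mitosis were hardly measurable. Ube2c, which starts chains for the anaphase-promoting complex, was not detected on any array, at 4.25 to 4.49 in Sle2 and 4.29 to 4.40 in B6. Ube2s, which extends those chains, was detected in 1 Sle2 mouse and 2 B6 mice, at 4.98, 4.69 and 4.61 in Sle2, against 5.15, 4.42 and 5.02 in B6. Its difference was -0.10 (adjusted p = 0.816). Ube2t, the Fanconi anaemia pathway enzyme, was not detected on any array. Of the markers of dividing cells, 5 of 6 measured were detected, with a summed level of 526 to 735 in Sle2 and 455 to 746 in B6, and Ccna2 was not.

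Of the remaining DNA repair enzymes, Ube2a and Ube2b, mouse counterparts of yeast Rad6, were both well detected. Ube2a was at 7.49, 7.51 and 7.74 in Sle2, against 7.32, 7.22 and 7.51 in B6, a difference of 0.23 (adjusted p = 0.350) with overlapping strains. Ube2b was at -0.04 (adjusted p = 0.884) on its brightest probe and at 0.25 (adjusted p = 0.243) on another, on which the strains did not overlap. Ube2w was not detected by either probe.

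The enzymes for ubiquitin-like proteins were Ube2f for Nedd8 and Ube2l6 for Isg15, grouped here with Ube2z, which receives ubiquitin from the activating enzyme Uba6. Ube2z was at 7.85, 7.62 and 7.90 in Sle2, against 7.99, 8.08 and 8.12 in B6. All Sle2 mice lay below all B6 mice, and the difference was -0.27 (SE 0.11, adjusted p = 0.252). Ube2f had 4 tested probes, at 0.06 on the brightest and at 0.18, -0.06 and -0.36 on the others. The probe at -0.36 read 8.0, 8.01 and 8.10 in Sle2, against 8.32, 8.42 and 8.46 in B6 (SE 0.09, adjusted p = 0.118). Ube2l6 was at -0.13 (adjusted p = 0.715) and 0.02 on its probes, and B6 mouse 3 was the highest of the 6 on both, at 7.92 and 7.06.

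The last group holds Ube2l3, Ube2h and the large or divergent members. Ube2l3, which serves ligases of the HECT and RBR kinds including the linear chain complex of NF-kB signalling, was at 11.03, 10.97 and 10.99 in Sle2, against 10.91, 10.75 and 10.75 in B6. Its probes gave 0.20 (adjusted p = 0.332) and 0.23 (adjusted p = 0.332), the closest match among the genes with several probes, and the strains did not overlap on either. Ube2o, a large enzyme known for remodelling the proteome of maturing red cells, was at 9.84, 9.80 and 9.96 in Sle2, against 9.67, 9.58 and 9.65 in B6. The difference was 0.23 (SE 0.09, adjusted p = 0.263) with no overlap. Ube2h, which works with a ligase complex needed for red cell maturation, was at 7.42, 7.41 and 7.59 in Sle2, against 7.62, 7.79 and 7.90 in B6. Here too the strains did not overlap, with a difference of -0.30 (SE 0.11, adjusted p = 0.227). The erythroid markers had a median difference of 0.71, as given above, and their part in the Ube2o and Ube2h values was not tested. Ube2q1 was at 0.17 (adjusted p = 0.433) on its brightest probe, 0.17 on another and -0.38 (adjusted p = 0.182) on the third.

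Agreement between probes of a gene could be read for 10 genes with 25 tested probes. The probes had opposite signs for 6 of them, Ube2b, Ube2f, Ube2g1, Ube2l6, Ube2q1 and Ube2q2, or 60.0%, beside 49.5% of all 3764 genes with at least 2 tested probes. The spread between the highest and the lowest difference of a gene had a median of 0.31 in the family and 0.19 over all such genes, and it depends on the number of probes. It ran from 0.03 for Ube2l3 to 0.55 for Ube2q1. Probes of a gene share the same arrays and are no replicates, and none of these differences was called.

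**Figure D4:**
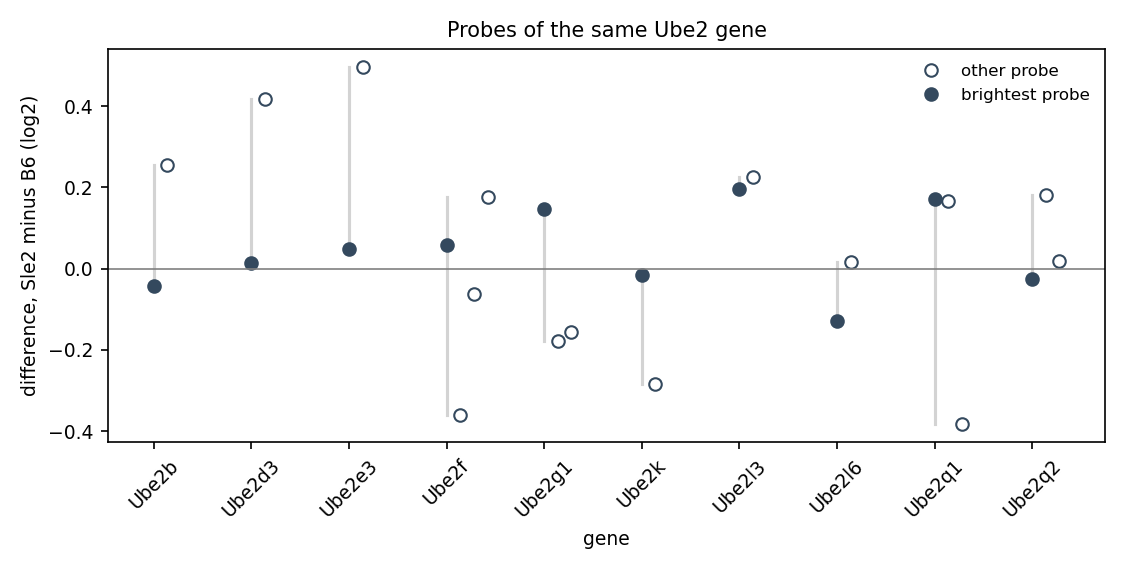
Difference between Sle2 and B6 on the log2 scale for every tested probe of the 10 Ube2 genes that have several, with the brightest probe filled and the others open. Points on both sides of 0 mark the 6 genes whose probes had opposite signs.

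The wider ubiquitin pathway was read from 6 lists with 160 tested genes, of which 0 were called by limma, beside 1.04% of all tested genes, and 21 (13.1%) had an unadjusted p under 0.05, against 16.9% of all tested genes. Activating enzymes had 0 of 7 called and a median of 0.01, with Uba3, the Nedd8 E1 subunit, at -0.32 (adjusted p = 0.294), Uba7, the Isg15 E1, at 0.19 and Mocs3 at -0.17. Conjugating enzymes with other names had 0 of 8 called and a median of 0.01, with Ufc1 at -0.24, Cdc34 at 0.23 and Tsg101 at -0.16. Ubiquitin-like modifiers had 0 of 9 called and a median of -0.16, with Urm1 at 0.31, Ubl4a at -0.21 and Isg15 at 0.27.

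E3 ligases and adaptors, with 62 tested, had a median of 0.04 and none called. Nedd4, a HECT ligase, was at 0.46 (adjusted p = 0.125), Dtx1, a Notch pathway ligase found in marginal zone B cells, at 0.71 (adjusted p = 0.148) and Rnf31, the catalytic subunit of the linear chain complex, at -0.37 (adjusted p = 0.165). Dtx1 passed with arrays scaled to equal medians. Deubiquitinases, with 43 tested, had a median of 0.00 and none called, with Usp14, which acts at the proteasome, at 0.41 (adjusted p = 0.136), Bap1 at -0.26 and Josd2 at 0.30.

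Proteasome subunits, with 31 tested and none called, had a median of -0.11. Of these, 7 (22.6%) were lower at an unadjusted p under 0.05, against 6.45% of all genes. The 7 include the dim Psmd6, at 4.87 in Sle2 and 5.13 in B6. It was detected in 1 Sle2 mouse and in all 3 B6 mice, which alone met the filter. Psma1, Psma3, Psma6, Psmc6 and Psmd3 were not detected. With arrays scaled to equal medians this list's median was 0.05, where that of all genes was 0.14 in place of 0.02. Psmd2, a subunit of the regulatory particle, was at 6.31 ± 0.21 in Sle2 and 6.98 ± 0.18 in B6 (SD, n = 3 each), a difference of -0.67 (SE 0.14, limma adjusted p = 0.0710). Psmb7 was at -0.58 (adjusted p = 0.14) and Psmb5 at -0.35 (adjusted p = 0.175), both subunits of the catalytic core. Psmd2 passed an adjusted p of 0.05 with no background correction, series matrix values, a trended robust prior and the replicate block. It passed in no fit that left a mouse out. Psmb7 passed without B6 mouse 1.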

How the data were processed

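Trizol-extracted total RNA of splenic B cells was biotin-labelled and run on 1 Illumina BeadChip per mouse, per the labels. GenomeStudio is the tool that the submitters' processing notes name for the deposited bead intensities. They are linear, with no negative values and distributions that differ between arrays, so they were taken as not background-subtracted and not normalized. Next to each intensity the authors deposited that probe's detection p-value. Their series matrix holds a second set of deposited intensities, which from their shared distribution are quantile-normalized and not background-subtracted, by a method not given in the sources used here.

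Intensities were corrected with normexp, using 936 negative controls recovered from the detection p-values and an offset of 16, before quantile normalization and log2 (neqc of limma 3.58.1 in R 4.3.3). Probes detected (p under 0.05) on 3 or more of the 6 arrays entered the fit (17861 probes of 9297 named genes and of unnamed ones). The strain effect was tested two-sided with lmFit and eBayes, Benjamini-Hochberg adjusted over all kept probes, with calls at an adjusted p under 0.05. The code of the fit was checked on simulated independent values with known added differences. That simulation held no sex or cell mixture effects and says nothing about these mice. Differences are Sle2 minus B6. There is no read depth here, and precision is limited by the number of arrays. Summed marker levels add the brightest probe of each marker.

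Symbols came from the supplied platform annotation, updated by gene identifier through a GRCm38.p6 RefSeq table, which held 34807 of 34885 singly named probes. Of the rest, 18 probes had several symbols and 10378 none, and these were fitted but not named. Family members, lists and the rule for named genes were chosen with earlier results of these data known. The rule names the Ube2e genes, called members, members on chromosomes 4 and 9, members without a kept probe, genes whose probes differ in sign, up to 4 members per role group and 3 per pathway list with the smallest p. The alternatives were no background correction, median scaling, series matrix values, no or a strict filter, array weights, a trended robust prior, all probes averaged per gene, a block for mouse number, single mice left out, a threshold of 0.1 and, added after seeing the data, the Xist signal as a covariate.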

Additional observations from a re-analysis of the deposited data

How the results depend on the processing

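The Ube2e2 difference moved by less than the SD of the B6 mice (0.43) under every alternative run, from 1.41 without background correction to 1.95 without B6 mouse 2. The mouse number as a replicate block left it at 1.69, with 0 other Ube2 genes and 1 pathway gene called. No label says that mouse numbers mark pairs, and the deviations of same-numbered mice correlated at 0.20, 0.13 and 0.04, with Sle2 mouse 3 not closest to its own number. Over all genes the block gave 72 calls, against 97. The count of other called Ube2 genes was 0 with all mice and with any mouse left out, and 1, Ube2v1, with no background correction, series matrix values or a trended robust prior. The count of called pathway genes was 0 in the analysis given above and 1 under 6 settings. These were Psmd2 with no background correction, series matrix values, a trended robust prior, the replicate block or an adjusted p under 0.1, and Dtx1 with median scaling. With single mice left out it ran from 0 to 1, the 1 being Psmb7 without B6 mouse 1.

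Of 390 values of other Ube2 genes under alternatives, 352 kept their sign and their side of the threshold, 3 passed it and 35 had the opposite sign, all in genes whose difference was at most 0.17 in size. With median scaling, which moved the median of all genes to 0.14, Ube2b was at 0.14, Ube2d-ps at 0.0045, Ube2e1 at 0.020, Ube2j2 at 0.035, Ube2k at 0.15 and Ube2q2 at 0.096. With the mean of all kept probes, Ube2b was at 0.11, Ube2f at -0.047, Ube2g1 at -0.062, Ube2q1 at -0.015 and Ube2q2 at 0.058. With single mice left out, Ube2b ran from -0.15 to 0.028, Ube2d-ps from -0.17 to 0.053, Ube2d2a from -0.041 to 0.051, Ube2d3 from -0.032 to 0.080, Ube2e3 from -0.031 to 0.11, Ube2f from -0.012 to 0.16, Ube2j1 from -0.072 to 0.16, Ube2j2 from -0.096 to 0.012, Ube2k from -0.086 to 0.029, Ube2l6 from -0.26 to 0.040 and Ube2q2 from -0.072 to 0.025. The cause was not tested. Over all 9297 genes the count of calls was 97, against 245 with median scaling (89.4% higher, against 62.9%), 200 and 187 without background correction and with series matrix values, 285 with a trended robust prior, 56 with no filter, 51 with the Xist covariate and 25 to 136 with single mice left out. Dim probes such as those of Ube2u and Ube2s lie near the detection limit.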
